A study of Bos taurus with 8 samples.

Results

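The genes described here carry iron into cells, store it, export it and sense it. They are TFRC, TF, STEAP3, SLC11A2, FTH1, FTL, SLC40A1, HMOX1, IREB2 and ACO1, chosen by symbol with the results of the same in vitro against in vivo contrast already known. The values that chose them are therefore the log2 ratios given below, and the calls on them are a description that supports nothing by itself. Of the 10 genes, 9 had a probe under their symbol in the array's annotation, out of 15229 genes with a symbol. They were measured by 17 of the 43795 probes. No probe carried the symbol FTL, so the ferritin light chain was not analysed here. Of the 17 probes, 13 were tested, covering 7 of the 9 genes, and the probes of TF and HMOX1 were too close to background for a test.

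Animal cells take up most of their iron as transferrin, which binds the transferrin receptor TFRC and is internalised. In the endosome a reductase such as STEAP3 converts the iron to its ferrous form, and the transporter SLC11A2 (DMT1) passes it to the cytosol. There it is used, stored in the ferritin shell made of FTH1 and FTL chains, or exported by ferroportin (SLC40A1), while HMOX1 frees iron from haem. The iron regulatory proteins, encoded by ACO1 and IREB2, bind iron-responsive elements in mRNAs when iron is low. In mammals this binding stabilises the TFRC mRNA and blocks translation of the ferritin mRNAs. Ferritin protein is thus set largely at translation.

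Bovine blastocysts made in vitro were compared with blastocysts flushed from the uterus. The in vitro embryos came from cumulus-oocyte complexes of 2 to 6 mm follicles, matured, fertilized and cultured in the laboratory and collected 168 h after fertilization. The in vivo embryos came from Holstein heifers or cows whose follicles over 8 mm had been aspirated. These animals received 400 mg of FSH in 8 injections going down from 60 mg to 20 mg, and 500 µg of a prostaglandin F2α analogue with each of the last injections. They were inseminated 12 and 24 h after oestrus, and their embryos are labelled day 7, with flushing at 7.5 days. One pool of semen served both kinds of embryo. The labels name the in vitro embryos as ovum pick-up embryos in one field and as slaughterhouse material in another, and do not give the number or sex of embryos in a replicate. Hormone treatment and oocyte source differ along with the place of development, and their parts cannot be told apart. There were 4 biological replicates per kind by the design text. Each in vitro replicate was hybridised with the in vivo replicate of the same number on 2 two-colour arrays, 1 on slide 58 with the in vitro RNA in Cy5 and 1 on slide 61 with the in vivo RNA in Cy5.

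Ratios are given as log2 of the in vitro signal over the in vivo signal, so a positive one means more signal in vitro. The 2 arrays of a number were averaged, and mean ± SE and adjusted p come from limma over 4 replicates. A call is an adjusted p under 0.05. Adjusted p-values for genes cover 10188 genes, each represented by its brightest tested probe, and those for probes cover 24775 probes. Of the genes tested, 21.8% were called, 9.23% higher and 12.6% lower, and of the probes 15.8% were called. The median log2 ratio of all genes tested was -0.01. Replicate 2 stood apart. Its ratios correlated at 0.39 to 0.46 with those of the other replicates across probes, against 0.80 to 0.82 among replicates 1, 3 and 4. The share of probes above the negative controls was 63.7% to 76.4% per array for the in vitro RNA and 60.4% to 83% for the in vivo RNA. Of 14 blastocyst markers on the array, 11 were detected in both kinds on all arrays and none was undetected throughout. Their summed normalised intensity was 52440 to 78850 in vitro and 89520 to 95300 in vivo over replicates. Of the 13 tested, 1 was called higher and 4 lower (38.5%, beside 21.8% of all genes). TFAP2C was higher at 0.67, and TDGF1 at -2.22, NANOG at -1.77, KRT18 at -1.46 and PAG2 at -0.88 were lower. The other tested markers were not called. The RNA was from whole embryos, so fewer cells of a type and less RNA per cell cannot be told apart.

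Among the 9 genes, TFRC was called higher in vitro, SLC11A2 and ACO1 lower, and FTH1, SLC40A1, IREB2 and STEAP3 were not called at the brightest probe. That is 3 of 7 tested genes, beside 21.8% of all genes, a count from which nothing is read because the same contrast chose the genes. By probe, 2 of 13 were called higher and 4 lower, beside 15.8% of all probes called, and again nothing is read from the count. Without replicate 2, the replicate that stood apart, the log2 ratios were 1.45 for TFRC, -0.89 for SLC11A2 and -0.58 for ACO1, and the same 3 genes were called. In that setting 3689 of all genes were called, against 2225 with all replicates.

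**Figure D1:**
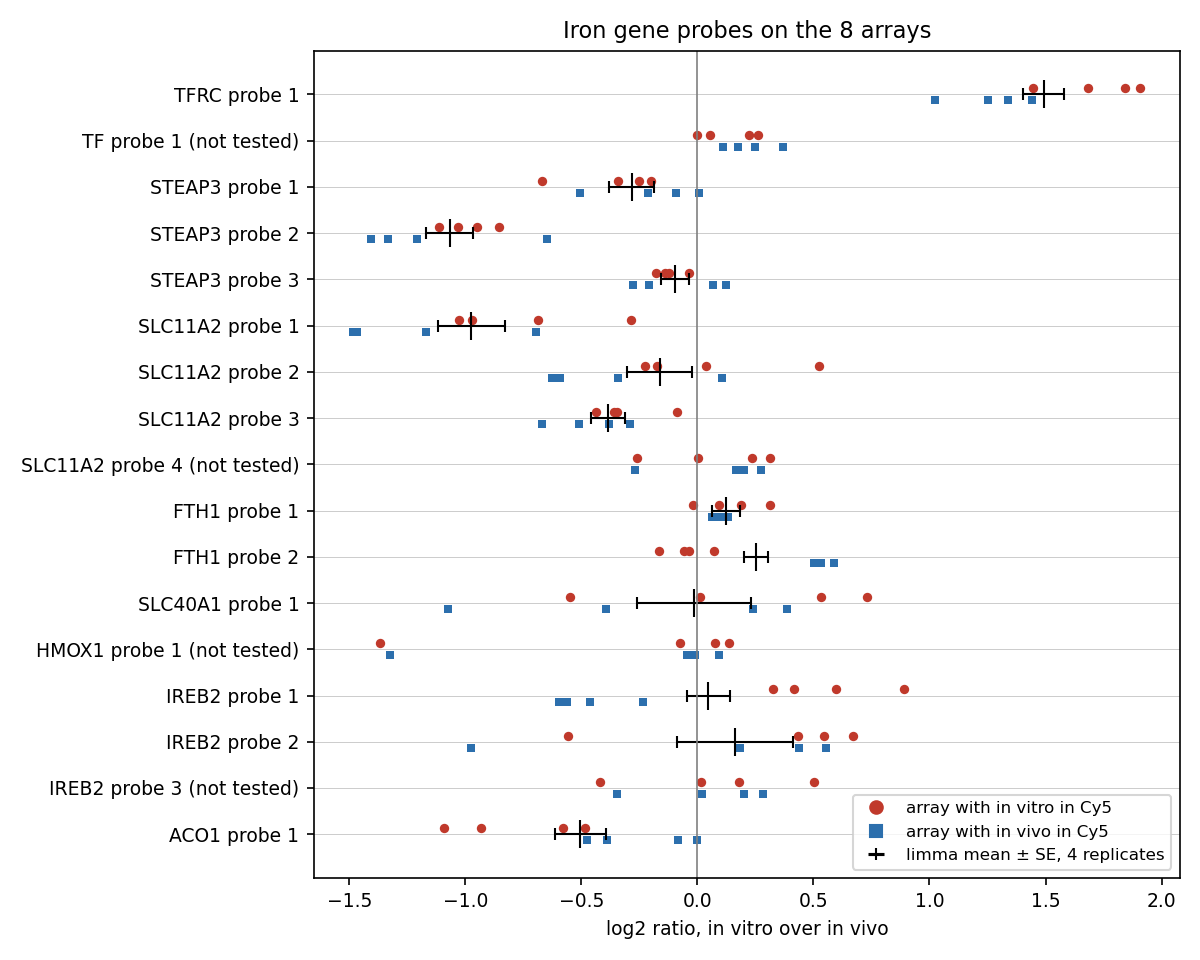
Log2 ratio, in vitro over in vivo (x axis), of all 17 probes of the iron genes (rows) on the 8 arrays, with circles for arrays with in vitro RNA in Cy5 and squares for arrays with in vivo RNA in Cy5; the bar is limma's mean ± SE over 4 replicates. TFRC lies above 0 on all 8 arrays at a mean of 1.49, whereas SLC11A2 probe 1 and STEAP3 probe 2 lie below 0 on all 8, and IREB2 probe 1 lies above 0 in one dye orientation and below it in the other.

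TFRC, the iron uptake receptor, gave a higher signal in vitro than in vivo. Its probe read raw intensities of 2959 to 5027 for the in vitro RNA and 1191 to 1567 for the in vivo RNA over the 8 arrays, so the readings did not overlap. On the normalised log2 scale the 4 in vitro replicates were at 11.86, 11.71, 11.68 and 12.19, and the 4 in vivo replicates at 10.39, 10.09, 10.44 and 10.55. Every in vitro replicate was more than 1 log2 unit above its in vivo partner.

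The log2 ratios of TFRC in replicates 1 to 4 were 1.47, 1.62, 1.23 and 1.64. Their mean was 1.49 ± 0.09, a 2.81-fold higher signal in vitro (gene adjusted p = 0.00502, limma). By the size of the log2 ratio TFRC stood 56th among the 10188 genes tested. The ratio averaged 1.72 ± 0.21 on the 4 arrays with in vitro RNA in Cy5 and 1.26 ± 0.18 on the 4 arrays with in vivo RNA in Cy5 (SD), so the direction was the same in both and the size differed. TFRC was called under each of the 13 alternative settings tried for genes, including those that left out 1 replicate.

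Transferrin, the ligand of the receptor and a plasma protein made mainly by the liver, was not measurable. The probe annotated TF read 70.1 to 139 for the in vitro RNA and 78.9 to 154 for the in vivo RNA, and exceeded the negative controls on 0 of 8 arrays in either. No fold is given. TF is also listed as a synonym of a second bovine gene in RefSeq, the coagulation factor gene F3, so the identity of this probe is not settled by its symbol.

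The endosomal reductase STEAP3 had 3 probes that differed in size. The brightest gave log2 ratios of -0.28, -0.15, -0.59 and -0.12 in replicates 1 to 4, with a mean of -0.28 ± 0.10. It did not pass the threshold (gene adjusted p = 0.105, limma), and its levels in vitro and in vivo overlapped. With the replicate block and a dye term in the fit, the adjusted p was 0.0405, and with the mean over all 3 probes the log2 ratio was -0.48 with an adjusted p of 0.0146.

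STEAP3 probe 2 was dimmer and further from 0. Its log2 levels were 6.73, 6.98, 6.96 and 7.00 in vitro and 7.48, 8.17, 8.22 and 8.08 in vivo, with no overlap. The raw intensities per array met at the edge, at 96.4 to 209.4 in vitro and 208.2 to 339.2 in vivo. The 4 ratios were -0.75, -1.18, -1.26 and -1.08, with a mean of -1.07 ± 0.10, a 2.1-fold lower signal in vitro (probe adjusted p = 0.0081, limma). The probe exceeded the negative controls on 7 of 8 arrays in vitro and on 8 of 8 in vivo, so the fold is close to the floor of the assay and may be understated. Without replicate 4 its probe adjusted p was 0.0524. STEAP3 probe 3 was the dimmest, with raw intensities of 106 to 193 in vitro and 126 to 273 in vivo. It was at -0.10 ± 0.06 (probe adjusted p = 0.377, limma), with 2 of 8 arrays above 0, and its size may be understated too. The means of the probes agreed in sign and differed in size. Which transcripts each one matches is not stated in the labels or files.

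SLC11A2, the transporter that moves ferrous iron out of the endosome, was lower in vitro. At its brightest probe the raw intensities were 441 to 653 for the in vitro RNA and 759 to 1273 for the in vivo RNA. The log2 levels were 9.18, 8.75, 9.11 and 9.08 in vitro and 10.11, 9.98, 9.60 and 10.32 in vivo. The lowest in vivo replicate was above the highest in vitro replicate.

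The log2 ratios of SLC11A2 probe 1 were -0.93, -1.23, -0.49 and -1.25 in replicates 1 to 4. Their mean was -0.97 ± 0.15, a 1.96-fold lower signal in vitro (gene adjusted p = 0.0131, limma). The direction held on all 8 arrays, with means of -0.74 with in vitro RNA in Cy5 and -1.20 with in vivo RNA in Cy5. The call was lost without replicate 1, at an adjusted p of 0.0613, and without replicate 4, at 0.061, while the log2 ratio stayed between -1.13 and -0.88 over the replicates left out.

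Of the other SLC11A2 probes, probe 3 was lower by less, probe 2 was not called with all replicates and probe 4 was not measurable. Probe 3 was at -0.39 ± 0.07 and was called (probe adjusted p = 0.0317, limma). Its normalised levels in vitro and in vivo did not overlap, but its raw intensities did, at 129 to 252 and 183 to 397. It was not called without replicate 1, 3 or 4 (probe adjusted p 0.134, 0.0622 and 0.133). Probe 2 was at -0.16 ± 0.14 (probe adjusted p = 0.549), with a log2 ratio of 0.31 in replicate 2 and -0.43, -0.16 and -0.38 in replicates 1, 3 and 4. Without replicate 2 it was at -0.32 ± 0.07 and was called lower (probe adjusted p = 0.0397, limma). Calls over all genes numbered 3689 in that setting, against 2225 with all replicates. Probe 4 exceeded the negative controls on 0 of 8 arrays in either kind of embryo. The SLC11A2 gene makes several mRNAs that differ at their ends, some with an iron-responsive element and some without, and the sources used here do not say which of them a probe detects.

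**Figure D2:**
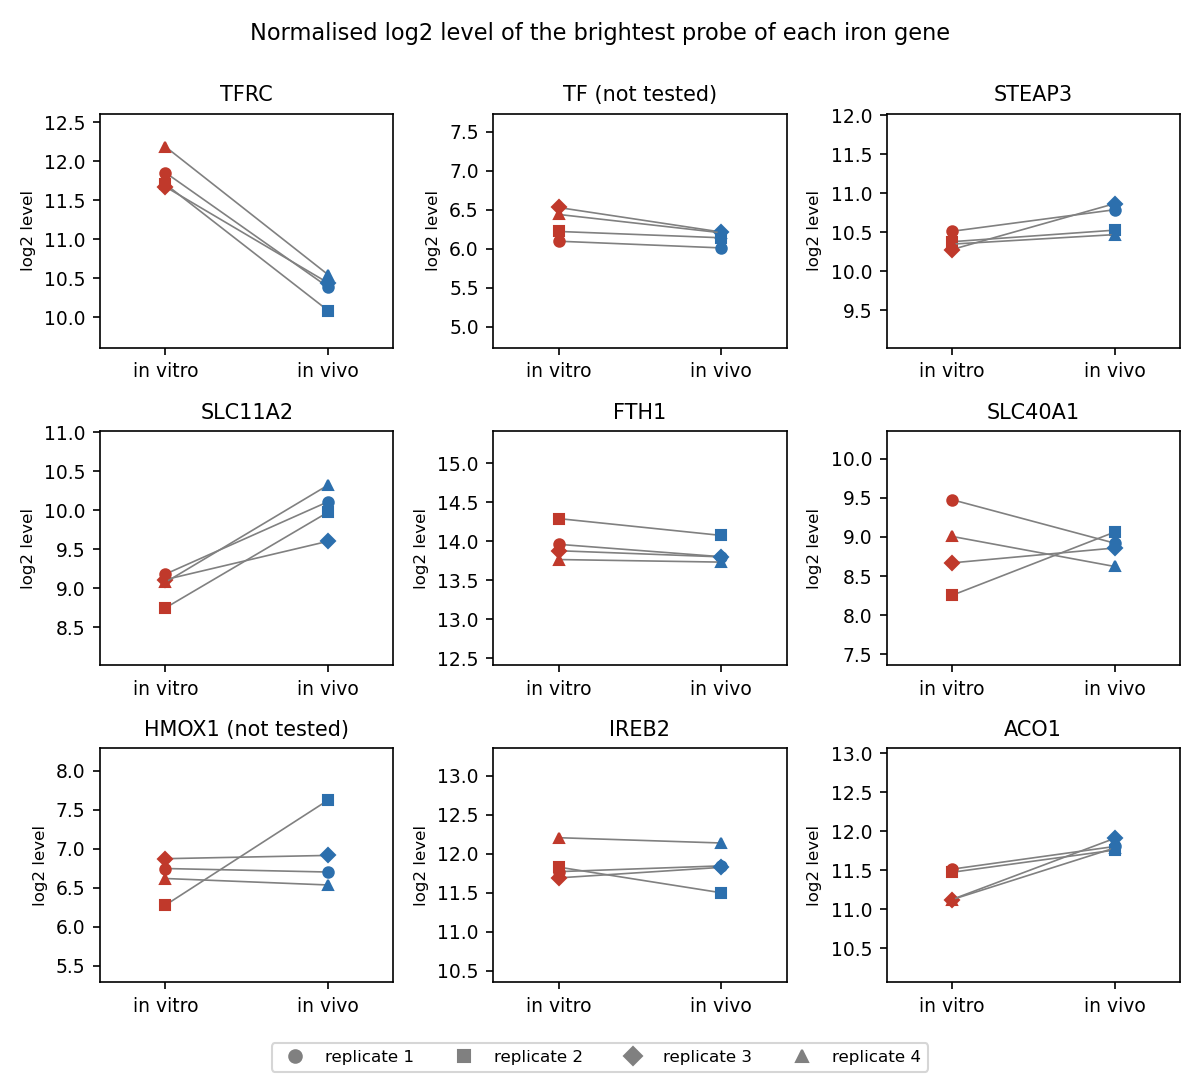
Normalised log2 level of the brightest probe of each iron gene (y axis, each panel spanning the same number of log2 units) in the in vitro replicates at the left and the in vivo replicates at the right; grey lines join the replicates hybridised together and marker shape gives the replicate number. The 4 lines of TFRC fall from left to right and those of SLC11A2 and ACO1 climb without overlap of the groups, whereas those of SLC40A1 cross.

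FTH1, the ferritin heavy chain that oxidises and stores iron, was bright in both kinds of embryo and differed little. At probe 1 the raw intensities were 13890 to 19495 for the in vitro RNA and 12130 to 20641 for the in vivo RNA. The brightest spot of any kind on each array read 38342 to 40155, so FTH1 was below the top of the range in use. The log2 ratios were 0.16, 0.22, 0.08 and 0.03, with a mean of 0.12 ± 0.06 (95% interval -0.03 to 0.28; gene adjusted p = 0.224, limma). The levels in vitro and in vivo overlapped.

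FTH1 probe 2 was called, at 0.25 ± 0.05 or 1.19-fold higher in vitro (probe adjusted p = 0.0367, limma), with replicate ratios of 0.24, 0.29, 0.21 and 0.28. That average joins unlike orientations, since the 4 arrays with in vitro RNA in Cy5 gave -0.05 ± 0.10 and the 4 with in vivo RNA in Cy5 gave 0.55 ± 0.04 (SD). The call was lost with the replicate block and a dye term (probe adjusted p = 0.0676), with median centring (0.0926) and without replicate 1, 3 or 4 (0.142, 0.13 and 0.184). Ferritin heavy chain sequences occur in many near-identical copies in mammalian genomes, and a probe may not tell them apart.

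Ferroportin, the only known iron exporter of animal cells, showed no shared direction. The log2 levels of SLC40A1 were 9.48, 8.25, 8.67 and 9.01 in vitro and 8.92, 9.06, 8.86 and 8.62 in vivo. The log2 ratios were 0.56, -0.81, -0.19 and 0.39 in replicates 1 to 4, with a mean of -0.02 ± 0.25 (gene adjusted p = 0.977, limma). The 95% interval of -0.65 to 0.62 does not exclude a change of either sign, and most of the spread was in vitro, with a SD of 0.52 against 0.18 in vivo.

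HMOX1, the inducible haem oxygenase, was near background. Its probe exceeded the negative controls on 2 of 8 arrays in vitro and on 4 of 8 in vivo and was not tested. Replicate 2 gave a log2 ratio of -1.35, and replicates 1, 3 and 4 gave 0.04, -0.04 and 0.08. In replicate 2 the in vitro readings were 133 and 146, below their negative control thresholds of 160 and 185, and the in vivo readings were 262 and 189, above theirs of 125 and 117. HMOX2, the constitutive haem oxygenase, was detected throughout and ran the other way in that replicate, at 0.79 against -0.51, -0.62 and -0.68 in replicates 1, 3 and 4. Its mean was -0.25 ± 0.28 (gene adjusted p = 0.598, limma), and without replicate 2 it was -0.60 with an adjusted p of 0.00488. Without that replicate 3689 of all genes were called, against 2225 with it.

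Of the regulators, ACO1, which is a cytosolic aconitase when it holds an iron-sulfur cluster and iron regulatory protein 1 when it does not, was lower in vitro. Its log2 levels were 11.52, 11.48, 11.13 and 11.12 in vitro and 11.81, 11.76, 11.91 and 11.79 in vivo, with no overlap. The raw intensities per array did overlap, at 1979 to 3500 for the in vitro RNA and 2678 to 4830 for the in vivo RNA. The log2 ratios were -0.29, -0.28, -0.78 and -0.66, with a mean of -0.51 ± 0.11, a 1.42-fold lower signal in vitro (gene adjusted p = 0.0352, limma).

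The ACO1 call was close to the threshold. All 8 arrays were below 0, with a mean of -0.77 ± 0.29 with in vitro RNA in Cy5 and -0.24 ± 0.23 with in vivo RNA in Cy5 (SD), where replicate 1 was at -0.001. On the arrays with in vivo RNA in Cy5 alone the adjusted p was 0.144, and without replicates 1, 3 and 4 it was 0.0777, 0.112 and 0.139. Without replicate 2 the gene was still called.

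IREB2, the iron regulatory protein that is degraded when iron is plentiful, was not called at either tested probe with all 8 arrays. At probe 1 the log2 ratio averaged 0.05 ± 0.09 (gene adjusted p = 0.793, limma). The 4 arrays with in vitro RNA in Cy5 gave 0.41, 0.89, 0.33 and 0.60, and the 4 with in vivo RNA in Cy5 gave -0.56, -0.24, -0.60 and -0.46. On every array the direction followed the dye, Cy5 being the higher, and not the kind of embryo.

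IREB2 probe 2 lay at 0.49, -0.77, 0.61 and 0.31 in replicates 1 to 4, with a mean of 0.16 ± 0.25 (probe adjusted p = 0.773, limma). Replicate 2 was below 0 in both dye orientations and the others above 0 in both. Without replicate 2 the probe was at 0.471 ± 0.075 and was called higher (probe adjusted p = 0.0177, limma). In that setting 3689 of all genes were called, against 2225 with all replicates. IREB2 probe 3 exceeded the negative controls on 7 of 8 arrays in each kind and was not tested. FBXL5, which senses iron and marks IREB2 for degradation, was at -0.24 ± 0.07 (gene adjusted p = 0.0825, limma; 0.0394 with the replicate block and a dye term), with -0.69 on the arrays with in vitro RNA in Cy5 and 0.22 on the others.

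**Figure D3:**
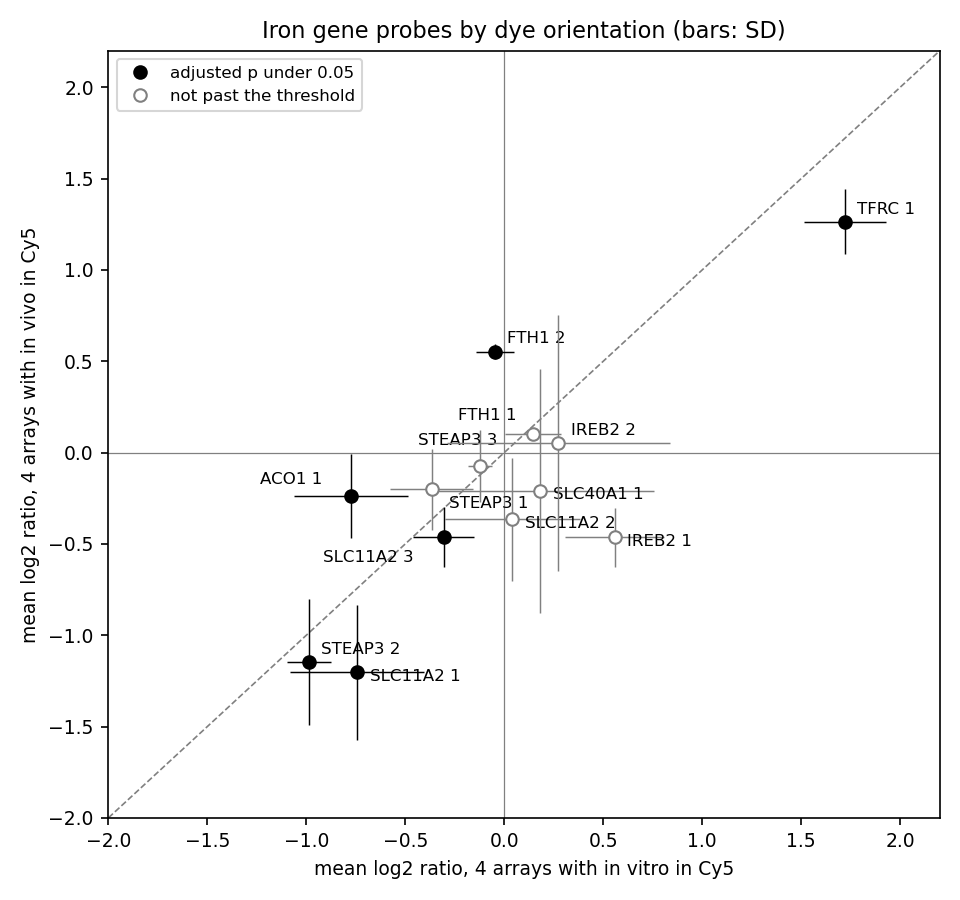
Mean log2 ratio, in vitro over in vivo, of the 13 tested probes on the 4 arrays with in vitro RNA in Cy5 (x axis) and on the 4 arrays with in vivo RNA in Cy5 (y axis), with SD bars; filled points had an adjusted p under 0.05 over all probes and the dashed line marks equal values. TFRC probe 1, SLC11A2 probe 1 and STEAP3 probe 2 lie far from 0 with the same sign in both orientations. STEAP3 probe 2 is near the line, and TFRC at 1.72 and 1.26 and SLC11A2 probe 1 at -0.74 and -1.20 are further off. IREB2 probe 1 at 0.56 and -0.46 lies furthest from the line.

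Over all probes tested, the median size of the departure of an orientation from the mean of both was 0.13 log2 units. IREB2 probe 1 departed by 0.51, a size that 4.05% of the probes tested reached, and FTH1 probe 2 by 0.30. The departure of TFRC was 0.23, of SLC11A2 probe 1 0.23 and of STEAP3 probe 2 0.08, each smaller than the log2 ratio of that probe. For ACO1 the departure was -0.27 with in vitro RNA in Cy5, beside a log2 ratio of -0.51. Of the iron genes, TFRC, SLC11A2 and ACO1 had 1 direction on all 8 arrays at their brightest probe, 3 of 7, beside 22.8% of all genes tested. Nothing is read from this count either, because the same contrast chose the genes. Slide 58 and slide 61 split the arrays exactly as the dyes do, so slide and dye cannot be told apart.

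The 5 genes whose 8 array ratios lay nearest those of TFRC were RND3, MOSPD1, GLDC, MAEL and ABCG2. The measure was the root mean square difference of the log2 ratios over the 8 arrays, among 9042 genes detected on all arrays in both kinds of embryo, and its median over those genes was 1.56. RND3 was nearest at 0.25 with a log2 ratio of 1.41 ± 0.08. MOSPD1 followed at 0.26, with a ratio of 1.41 ± 0.07, and GLDC, the decarboxylase of the glycine cleavage system, also at 0.26 with 1.41 ± 0.11. MAEL of the germline piRNA pathway was at 0.29 with 1.60 ± 0.08, and the efflux pump ABCG2 at 0.31 with 1.29 ± 0.09. The arrays share the 4 replicate pairs and the dyes, so the likeness is a description.

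Beyond the 9 genes, 105 symbols for genes of iron handling were listed by function, some being old and new names of 1 gene. Of the symbols, 83 had a probe and 69 were tested. Of these 69, 11 were called higher and 6 lower, 24.6% beside 21.8% of all genes, and their log2 ratios had a median of 0.06 where that of all genes was -0.01. The share is near that of all genes and is not a result about iron genes. Mitochondrial iron-sulfur cluster assembly builds the cofactors of respiratory complexes and lipoate synthesis. There 5 of 17 tested genes were called higher and 1 lower (35.3%), with a median of 0.19.

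ISCA1, a carrier of late cluster assembly, was called higher in vitro at 1.03 ± 0.07, with replicate ratios of 0.85, 1.01, 1.06 and 1.20 (gene adjusted p = 0.00502, limma). Its other tested probe was at 0.18 and not called. BOLA3 and NFU1, which act with it in passing clusters to lipoate synthase and other enzymes, were higher by 0.88 ± 0.07 and 0.82 ± 0.08 (adjusted p 0.00502 and 0.00624). ISCA2, the partner of ISCA1, was higher by 0.78 ± 0.14 (adjusted p = 0.0221).

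The remaining calls of that list, named here after their values were seen, were NUBPL at 0.65 ± 0.07, an assembly factor of complex I clusters, and the mitochondrial chaperone HSPA9 at -0.52 ± 0.12 (adjusted p 0.00746 and 0.0359). The scaffold gene ISCU was at 0.04 ± 0.10 (gene adjusted p = 0.815, limma), with -0.40 on the arrays with in vitro RNA in Cy5 and 0.49 on the others.

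In the cytosolic branch of cluster assembly, 2 of 10 tested genes were called higher and 2 lower, with a median of -0.09. That is 40% beside 21.8% of all genes, and with 10 genes tested nothing is read from the share. CIAO1, a targeting subunit, was higher by 0.51 ± 0.09 and GLRX3, a cytosolic monothiol glutaredoxin, by 0.39 ± 0.06 (adjusted p 0.022 and 0.0131, limma). MMS19, of the same targeting complex as CIAO1, was at -0.43 ± 0.10 and the scaffold gene NUBP1 at -0.34 ± 0.07 (adjusted p 0.0444 and 0.0329). CIAO1 and MMS19 of 1 complex thus had opposite signs, but neither call held under all settings. The MMS19 call was lost with median centring (adjusted p = 0.115, limma) and without replicate 1, 2, 3 or 4 (0.0753, 0.0613, 0.111 and 0.131). CIAO1 lost its call with median centring (0.0976) and without replicate 1, 3 or 4 (0.0961, 0.0782 and 0.0585). Its other tested probe was at 0.18 and not called. NUBP1 lost its call with the mean over its tested probes (0.0553) and without replicate 1, 3 or 4 (0.13, 0.114 and 0.0771). The other tested probe of NUBP1 was at -0.28 and not called. GLRX3 lost its call on the arrays with in vivo RNA in Cy5 alone (0.0598). It was also lost without replicate 1, 3 or 4 (0.0686, 0.0684 and 0.0662), while the other tested probe of GLRX3 was called at 0.30.

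Haem synthesis had 2 of 13 tested genes called higher and 1 lower (23.1%, beside 21.8% of all genes). TMEM14C, a mitochondrial inner membrane protein needed for porphyrin transport, had the largest log2 ratio of the listed genes, 1.33 ± 0.09, with replicate ratios of 1.35, 1.07, 1.36 and 1.55 (gene adjusted p = 0.00502, limma). Its other 2 tested probes were also called, at 0.60 and 0.83. The consecutive enzymes UROS and UROD went opposite ways, at 0.30 ± 0.07 and -0.45 ± 0.08 (adjusted p 0.0356 and 0.019). Both calls were lost without replicate 1, 3 or 4 (0.138, 0.141 and 0.107 for UROS, 0.0778, 0.0599 and 0.0747 for UROD).

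In haem breakdown and transport, 1 of 9 tested genes was called higher and 1 lower (22.2%, beside 21.8% of all genes). PGRMC1, a haem-binding membrane protein, was at 0.83 ± 0.19 (gene adjusted p = 0.0373, limma), with 1.09, 1.14 and 0.94 in replicates 1, 3 and 4 and 0.14 in replicate 2. HEBP2, named for its likeness to a haem-binding protein, was at -1.26 ± 0.19 (gene adjusted p = 0.0141), with 1 probe called and its other 2 tested probes at -0.17 and 0.12.

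Among 15 tested genes of iron uptake, reduction and trafficking, 1 was called higher and 1 lower (13.3%, beside 21.8% of all genes). Both encode zinc and iron transporters of 1 family. SLC39A8 was higher by 0.40 ± 0.07 (gene adjusted p = 0.0194, limma) and SLC39A14 was at -0.76 ± 0.13 (gene adjusted p = 0.0185). The SLC39A8 call was lost with median centring (0.0558) and without replicate 3 or 4 (0.0899 and 0.101). The SLC39A14 call was lost with median centring (0.0822) and on the arrays with in vivo RNA in Cy5 alone (0.0812). It was also lost without replicate 1, 3 or 4 (0.0612, 0.0733 and 0.0644). The other 2 tested probes of SLC39A14 were at -0.86 and -0.19 and not called. NCOA4, the receptor that brings ferritin to lysosomes, was at 0.16 ± 0.07 and not called at its brightest probe (gene adjusted p = 0.209), and its other tested probes ran from -0.20 to 0.57, with 1 called. Of 5 tested genes of iron export and systemic regulation, 0 were called by limma and 2 had an unadjusted p under 0.05, with log2 ratios from -0.39 to 0.47.

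**Figure D4:**
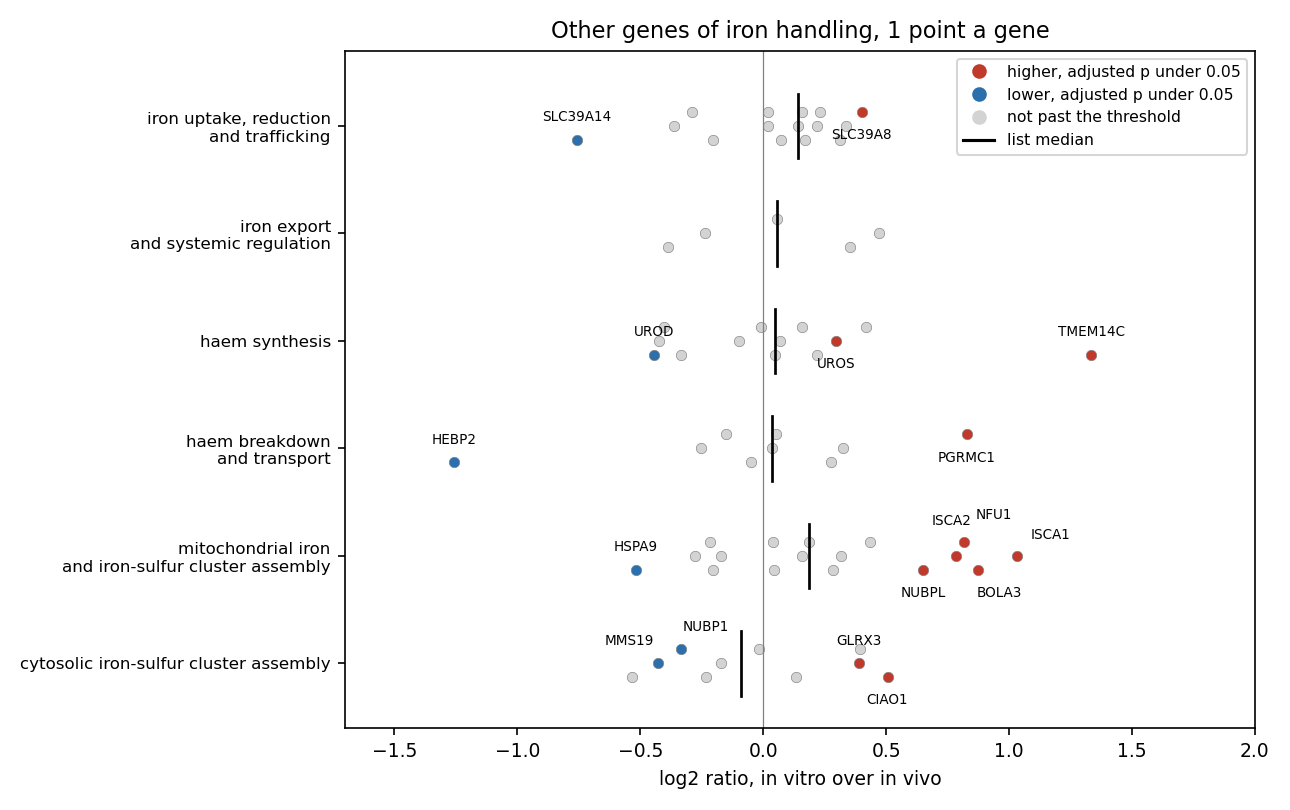
Log2 ratio, in vitro over in vivo (x axis), of the 69 tested genes of iron handling beyond the 9, 1 point a gene and 1 row a list; coloured and named points had an adjusted p under 0.05 over all genes, and black lines are list medians. The 5 called-higher mitochondrial cluster genes lie between 0.65 and 1.03 and HSPA9 of the same list at -0.52, and each other list with calls also holds them on both sides of 0.

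Of these 17 calls, 5 were made under every one of the 13 alternative settings, namely ISCA1, BOLA3, NFU1, NUBPL and TMEM14C. The count was 6 without replicate 1, 6 without replicate 3, 5 without replicate 4 and 23 without replicate 2. With the replicate block and a dye term it was 27, of which 17 were the same genes.

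Markers of other cell types were read beside these values, and their counts stand beside 21.8% of all genes called. Of 11 red blood cell markers on the array 7 were tested and 0 were called by limma (2 at an unadjusted p under 0.05), and their summed normalised intensity was 1553 to 1777 in vitro and 1477 to 1765 in vivo over replicates. Of 18 leukocyte and macrophage markers 7 were tested and 0 were called (0 at an unadjusted p under 0.05), with summed intensities of 1887 to 2253 in vitro and 1976 to 2251 in vivo. Detected on all 8 arrays in both kinds were 5 of the leukocyte markers, PTPRC, CD3E, LAPTM5, FCER1G and S100A8, and 4 of the red cell markers, HBA, HBG, GYPC and SLC4A1. Their log2 ratios ran from -0.01 to 0.10 in the leukocyte genes and from -0.15 to 0.79 in the red cell genes, with HBG the highest. CSF1R, ITGAM, TYROBP and CD79A of leukocytes, and HBM and CA1 of red cells, exceeded the negative controls on no array. Cumulus and granulosa markers summed to 2731 to 3136 in vitro and 4200 to 5479 in vivo, with 2 of 10 called lower. Those called were STAR at -1.22 ± 0.12 and HSD3B1 at -1.56 ± 0.23. The other tested genes of that list were not called, with FSHR at -0.02, PTX3 at 0.00 and CYP11A1 at -0.61. Oviduct and uterus markers summed to 1029 to 1092 in vitro and 1020 to 1261 in vivo, with 1 of 5 called higher and 1 lower. Sperm markers summed to 880 to 971 in vitro and 1162 to 1364 in vivo, with 1 of 2 tested called lower. That gene was TNP1 at -1.63 ± 0.14, while SPATA18 was at 0.07 ± 0.06. Of 8 tested oocyte markers 0 were called (1 at an unadjusted p under 0.05). The part of such cells in the iron gene values was not tested.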

How the data were processed

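PicoPure extraction, RiboAmp HS Plus amplification and labelling in Cy3 or Cy5 are recorded in the labels' protocols. For each array the authors deposited a scanner table with the raw foreground intensity and local background intensity of each spot in Cy5 and Cy3. A deposited table of the authors' own log2 ratios was used as an alternative. Set against the scanner's log2 Cy5 over Cy3, its 8 columns had r of 0.96 to 0.98 on slide 58 and -1.00 to -0.99 on slide 61, so it reads in vitro over in vivo. Its column medians were -0.0039 to 0.0013, and its normalization is not stated in the labels or files.

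Here limma 3.58.1 (R 4.3.3) was used for normexp background correction with an offset of 50 and then within-array loess, with 1425 control spots at weight 0. Levels per channel were scaled between arrays with limma's Aquantile. A probe counted as detected above the 95th percentile of 153 negative control spots of that channel, and was tested when every one of the 8 arrays detected it in vitro, in vivo or both. The test was lmFit on the intercept with eBayes (prior df 2.01), two-sided, with Benjamini-Hochberg adjustment. Same-numbered arrays were averaged as 1 replicate: their deviations from the slide mean correlated at 0.70 to 0.89, against at most 0.15 between other numbers. The fit with the replicate block used all 8 arrays (within-block correlation 0.83). Scripts were tested on simulated data, and figures used Python 3.11.15 and matplotlib 3.10.9.

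The iron genes and the lists were chosen with earlier results of these data known. Named are all iron genes with all their probes and every called gene of a pathway list with 5 or fewer calls. From longer lists the 4 largest are named. ISCU, FBXL5, NCOA4, HMOX2 and the 5 genes most like TFRC are named whatever they did. Some items of that rule are not reported here. Symbols come from the array's annotation, which can be old: of 15229, 14114 are current in the RefSeq annotation ARS-UCD2.0, 1019 are synonyms and 96 neither, and 22005 probes without a symbol were not named. Sequences and coordinates are not given here, since no genome build is named. With 8 arrays of 4 replicates, their number limits the precision.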

Additional observations from a re-analysis of the deposited data

Results flagged for a closer look

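IREB2 probe 1 stood at 0.56 on the 4 arrays with in vitro RNA in Cy5 and at -0.46 on the 4 arrays with in vivo RNA in Cy5, with every array of an orientation on 1 side. This difference between orientations was not tested. Of all probes tested, 14.4% had opposite directions in the orientations on every array.

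HMOX1 probe 1 had a log2 ratio of -1.35 in replicate 2, far from the other replicates at -0.04 to 0.08. Its gap to the nearest of them was 0.91 of the range, above Dixon's 95% critical value for 4 samples. All 17 probes were checked in this way, and chance flags about 1 in 20 groups. Replicate 2 also stood apart from the others over all probes.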

How the results depend on the processing

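Of the 7 tested iron genes, TFRC kept its call and direction under all 13 alternatives. The count of iron genes called was 3, against 5 on the arrays with in vitro RNA in Cy5 alone, where IREB2 (0.56, adjusted p 0.0178) and STEAP3 joined, 4 with the replicate block and 1 to 3 when 1 replicate was left out. With in vivo RNA in Cy5 alone 3 were called, but ACO1 was lost and IREB2 was called lower (-0.46, adjusted p 0.0155), opposite to the other orientation. Called iron probes numbered 6, against 1 to 8 when 1 replicate was left out. The pathway count of 17 became 28 with in vitro RNA in Cy5 alone, 27 with the replicate block and 5 to 23 when 1 replicate was left out. Over all genes, 2225 calls became 3372 with in vitro RNA in Cy5 alone and 639 to 3689 when 1 replicate was left out. Without replicates 1, 3 and 4 the calls over all genes numbered 797, 872 and 639, so the losses of ACO1 in all 3 settings and of SLC11A2 without replicates 1 and 4 came with fewer calls over all genes; the cause was not tested. Signs turned for SLC40A1 on the arrays with in vitro RNA in Cy5 (0.18), without replicate 2 (0.25) and without replicate 3 (0.04), with -0.21 to 0.25 over the replicates left out, and for IREB2 on the arrays with in vivo RNA in Cy5 (-0.46) and without replicate 2 (-0.047), with -0.047 to 0.11 over the replicates left out; the cause was not tested. The replicate block changed the iron gene calls of STEAP3 alone. Background, scaling and filter alternatives and the deposited ratios left 3 iron genes called, the same genes. TF, HMOX1 and the 2 untested probes are limited by signal near the negative controls.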
